A study of Mus musculus with 24 samples.

Results

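The subject here is how gene expression changed between 12 and 14 days after amputation of the mouse digit tip, and which genes changed differently after a distal than after a proximal amputation. For each of 15055 genes the quantity examined was the level difference: the distal change from 12 to 14 days minus the proximal change over the same days, on the scale of log2(value + 1). All genes in the deposited table entered, so no gene of that table was picked here by a measured value. The contrast used 16 of the series' 24 libraries, 4 per group: distal at 12 days, distal at 14 days, proximal at 12 days and proximal at 14 days. All animals were C57BL/6 mice, an inbred laboratory strain, 10 to 12 weeks old, with no transgene or drug named in the labels. The level of the cut and the day of collection are the only differences between the groups that the labels name. Each library was made from hind limb digit tip tissue that mixed bone, cartilage, marrow, dermis and epidermis. The contrast holds no unamputated control. Whether each library is 1 animal is not stated in the labels; the p-values here therefore rest on variation from library to library, some of which may be technical.

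An adult mouse can regrow the tip of a digit cut through the distal part of its last bone, whereas a cut closer to the base of that bone heals with little or no regrowth. Regrowth passes through inflammation, bone erosion by osteoclasts, closure of the epidermis, the gathering of dividing mesenchymal cells called a blastema, and new bone formed under the nail. The nail is made by a matrix of keratinocytes that fill with hard (hair-type) keratins, which are cross-linked by small keratin-associated proteins. Because the tissue is a mixture, fewer cells of a type and less RNA per cell cannot be told apart in any value given here.

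The 16 libraries had table totals, in units of 1e+06 of the deposited, already normalised values, of 15.3 to 18.1, and the sequencing depth is unknown. No measured member of the osteoblast, cartilage, epidermis or endothelium lists was at 0 in every library of a group. The same held for every other list, so it does not check the labelled tissues. The deposited table holds 4 of 22 listed lymphocyte genes, and whether it was filtered before deposit is unknown. On the principal components of the 16 libraries, 3 of the 4 proximal libraries of 12 days lay at 45.3 to 48.6 on the first component and replicate 1 lay at 24.6. Replicate 3 of the proximal 14-day group lay at 38.7 on the third component, where the next farthest library from 0 lay at -15.2. Counts and named genes whose class changed without either library are given below. A gene is called here when its adjusted p (limma, Benjamini-Hochberg over all 15055 genes) is under 0.05, and the words rose and fell are used only for called changes. The error after a log2 change is its moderated standard error (SE), with 4 libraries per group.

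The level difference was called for 1760 genes, 11.7% of those tested. It was positive for 995 genes (6.61%), so that they rose more or fell less distally, and negative for 765 (5.08%). The median over all genes was 0.03. The distal change alone was called for 2915 genes (19.4%), 1693 up (11.2%) and 1222 down (8.12%), and the proximal change for 2288 (15.2%), 1107 up (7.35%) and 1181 down (7.84%). When values were instead scaled to equal table totals, the level difference was called for 1320 genes, 888 positive and 432 negative, and the proximal change for 2199, 613 up and 1586 down. That scaling moved the median proximal change of all genes to -0.10 and their median level difference to 0.09. Scaling by median-ratio factors instead gave 851 positive and 877 negative level differences, and a proximal change for 1211 genes up and 1072 down. The excess of positive level differences thus depended on the scaling. Seen from the other side, distal and proximal libraries differed in 3053 genes (20.3%) at 12 days and in 811 genes (5.39%) at 14 days.

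Changes in a single level made up most of the called level differences. Of the 1760 genes, 897 (5.96% of all genes tested) changed only distally, 699 of them upward (4.64%) and 198 downward (1.32%). Another 538 (3.57%) changed only proximally, 402 upward (2.67%) and 136 downward (0.903%). A further 138 (0.917%) moved in opposite directions with both changes called: 65 (0.432%) rose distally and fell proximally, and 73 (0.485%) fell distally and rose proximally. Both levels moved the same way in 10 genes (0.0664%), and 177 genes (1.18%) had a called level difference with neither change called, all 177 with changes of opposite sign. Changing in a single level here means that the other level missed the threshold, which does not show that nothing changed there: 732 of the 897 distal-only genes and 422 of the 538 proximal-only genes had a proximal or distal change of the opposite sign. Requiring an unadjusted p of at least 0.05 in the other level left 735 distal-only and 444 proximal-only genes. Without proximal 12-day replicate 1 the classes held 774 distal-only, 409 proximal-only and 94 opposite genes, and without proximal 14-day replicate 3 they held 853, 411 and 111. Of the named genes described below, leaving out the first of these libraries moved Lrrc17 and Lhx9 from opposite to distal-only, Srgn from opposite to distal-only, Sfrp4 and Krtap26-1 from a single level to opposite, and Mcm3 and Pla2g5 to neither change called. It ended the call of Cxcr2, Prss35, Ptch1, Smpd3, Gfra3 and Igf2r. Leaving out the second moved Lhx9 to distal-only, Pdgfrb from distal-only to opposite, and Mcm3 and Ddah1 to neither change called, ended the call of Smpd3 and Gfra3 and added one for Msx1.

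**Figure D1:**
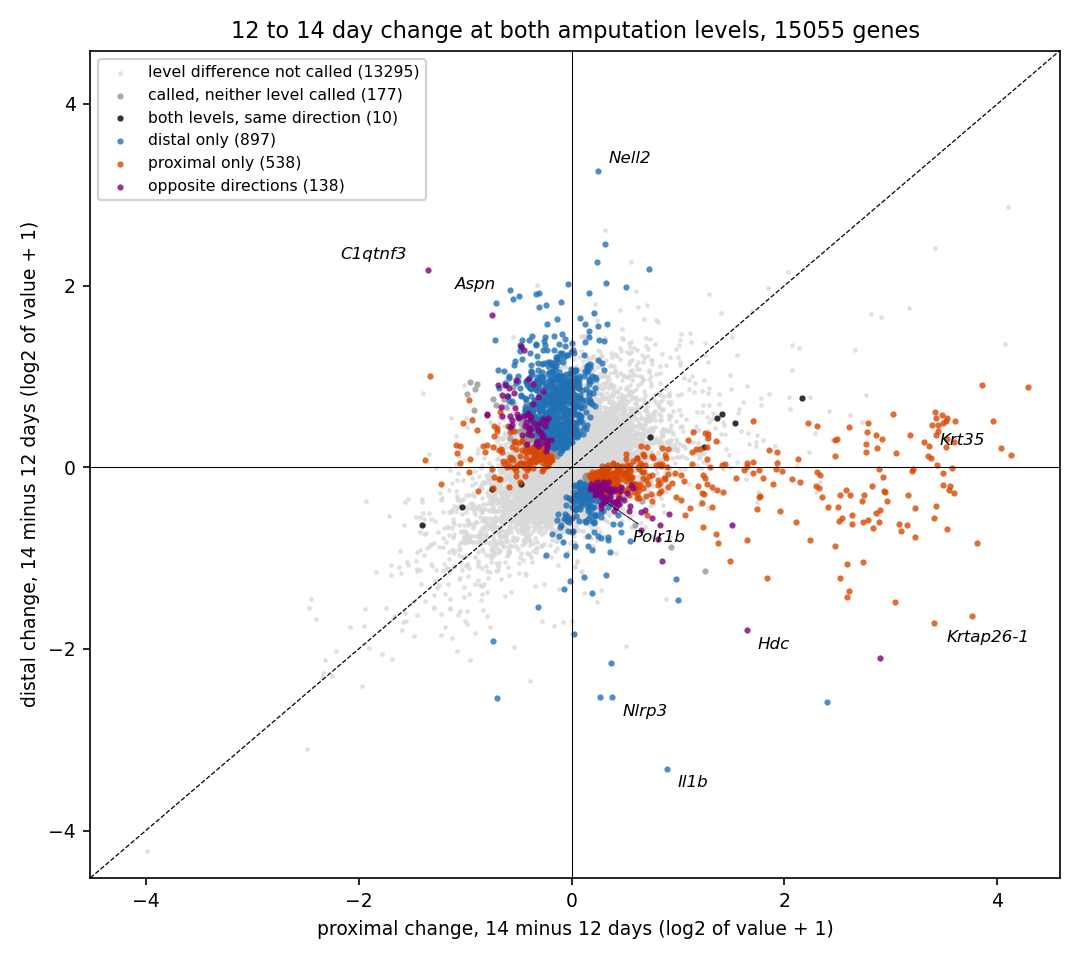
Distal change (y axis) against proximal change (x axis) from 12 to 14 days for 15055 genes, both in log2 of value + 1, 4 libraries per group; colours mark the classes, with gene counts in the key. Genes on the dashed line changed equally; the 402 genes that rose only proximally spread to the right near the level of no distal change, and the 699 that rose only distally stand above the origin.

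C1qtnf3 rose distally and fell proximally. It encodes CTRP3, a secreted protein of the C1q and TNF-related family made by mesenchymal cells, and lies on chromosome 15, plus strand (GRCm38 chr15:10952332-10980150, GENCODE vM21). Its values in the distal libraries were 255, 180, 255 and 87 at 12 days and 638, 928, 787 and 924 at 14 days. In the proximal libraries they were 2105, 2089, 2264 and 2541 at 12 days and 923, 1024, 972 and 650 at 14 days. The days did not overlap within either level, and the 14-day ranges of the 2 levels overlapped. The distal rise was 2.17 ± 0.32 (4.51-fold), the proximal fall -1.35 ± 0.32 (2.55-fold), and the level difference 3.52 ± 0.46 (SE, adjusted p = 7.04e-05, limma). This opposite movement was called in all 16 fits that left out 1 library.

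Loxl1, a lysyl oxidase that cross-links elastin and collagen (chr9:58287738-58313186, minus strand), moved the same way with a smaller span. Distal values were 967, 854, 994 and 914 at 12 days and 1563, 1460, 1326 and 1511 at 14 days. Proximal values were 2547, 2335, 2342 and 2782 at 12 days and 1997, 1807, 1727 and 1421 at 14 days. No 12-day value overlapped the 14-day values of its level. The changes were 0.65 ± 0.11 distally and -0.53 ± 0.11 proximally, with a level difference of 1.18 ± 0.16 (adjusted p = 7.59e-05, limma), and the class held in all 16 fits that left out 1 library.

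Hdc (chr2:126593667-126619299, minus strand) went the other way. It encodes histidine decarboxylase, the enzyme that makes histamine, and is known from mast cells, basophils and neutrophils. Its distal values were 208, 257, 409 and 195 at 12 days and 66, 97, 78 and 57 at 14 days, while its proximal values were 23, 22, 18 and 26 at 12 days and 44, 89, 72 and 91 at 14 days. The 12-day ranges of the 2 levels were far apart and the 14-day ranges overlapped. The distal change was -1.79 ± 0.27, the proximal change 1.65 ± 0.27 and the level difference -3.44 ± 0.38 (adjusted p = 1.84e-05, limma), called as opposite in all 16 fits that left out 1 library.

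**Figure D2:**
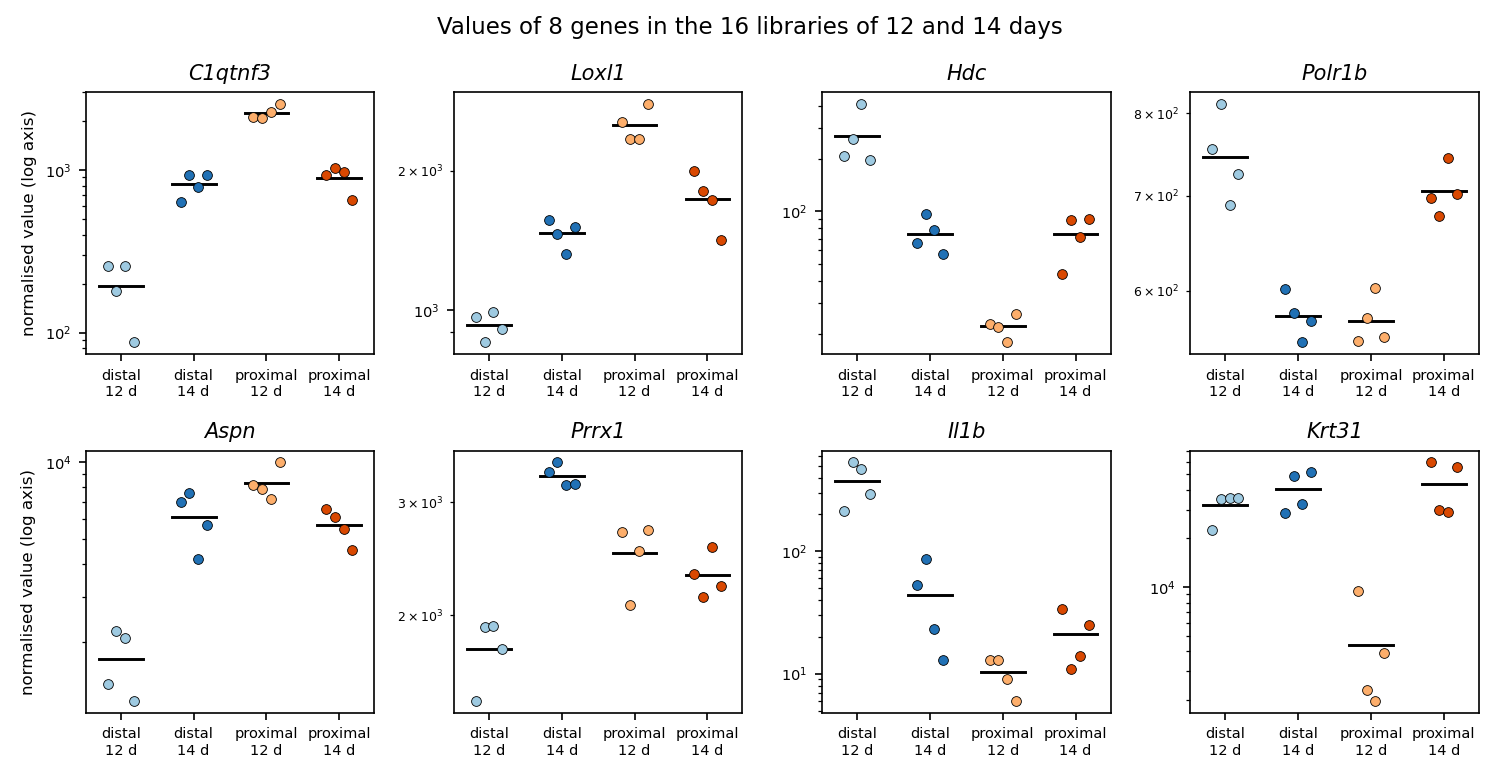
Normalised values (log axis) of 8 genes in each of the 16 libraries, 4 per group; points are libraries and black lines group means. C1qtnf3 and Loxl1 rose distally and fell proximally, Hdc and Polr1b fell distally and rose proximally, Aspn and Prrx1 rose distally, Il1b fell distally, and Krt31 rose proximally from 1966-9406 to 29341-59280.

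Of the other genes named for opposite movement, several had 1 change near the threshold. Lrrc17, a secreted leucine-rich repeat protein that limits osteoclast formation, rose 1.68 ± 0.21 distally and fell by 0.75 ± 0.21 on the log2 scale proximally. Its distal values went from 169, 197, 275 and 207 to 646, 863, 674 and 540, and its proximal values from 1199, 690, 1067 and 1299 to 648, 504, 758 and 578, where the days overlapped. Tgfb3, a transforming growth factor, went from 392, 655, 626 and 448 to 1480, 1126, 1203 and 1297 distally and from 1520, 1882, 2318 and 1946 to 1452, 1313, 1592 and 1235 proximally, again with overlapping proximal days. Its proximal change was -0.45 ± 0.15 (adjusted p = 0.0493, limma), so it kept the opposite class in only 6 of 16 fits that left out 1 library, while its level difference of 1.74 ± 0.21 was called in each. Mfap5, a component of elastic microfibrils (level difference 1.6 ± 0.29), and Lhx9, a LIM-homeodomain transcription factor of limb mesenchyme (1.53 ± 0.28), kept the class in 12 and 10 of the 16 fits, and Lrrc17 (2.43 ± 0.30) in 12. Exons of Lrrc17 and Tgfb3 overlap genes on the other strand, as do those of Aspn, Il1b, Selp, Polr1a, Fst, Fosl1, Mest, Chrd, Bmp4, Krt6a, Krt90, Smpd3, Stc1, Lef1 and Acp5. No source used here gives the strand setting of the counting, so reads of these genes cannot be told from those of the partner gene.

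Among genes that fell distally and rose proximally, Gldc, the glycine decarboxylase of the glycine cleavage system, went from 137, 133, 178 and 149 to 89, 102, 83 and 107 distally and from 68, 77, 65 and 41 to 147, 145, 243 and 185 proximally. Neither level had overlapping days, and the level difference was -2.15 ± 0.30 (adjusted p = 0.000143, limma). Srgn, the granule proteoglycan serglycin, had a level difference of -1.61 ± 0.35. Serpinb13, a protease inhibitor of squamous keratinocytes, had -1.35 ± 0.25, and Nqo1, a quinone reductase of the oxidative stress response, -1.31 ± 0.25. These 4 kept the opposite class in 10, 7, 15 and 11 of the 16 fits that left out 1 library, in the order given.

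Genes of ribosome biogenesis fell distally and rose proximally. This list holds RNA polymerase I subunits, nucleolar processing factors and their regulator Myc. Of its 20 measured members, 15 fell distally (all genes: 8.12%), 13 rose proximally (7.35%), and 18 had a called negative level difference (5.08%). The median change was -0.29 distally, 0.33 proximally and -0.63 as a level difference. By class, 9 members moved in opposite directions, 5 fell only distally, 3 (Ddx21, Myc and Ncl) rose only proximally and Pes1 had neither change called. Fbl and Npm1 had no called level difference, at -0.34 and -0.29. The changes were small and the libraries tight.

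Polr1b encodes a core subunit of RNA polymerase I, which transcribes the ribosomal RNA genes, and lies at chr2:129100995-129126594 on the plus strand. It had distal values of 755, 812, 689 and 725 at 12 days and 602, 579, 552 and 571 at 14 days. Its proximal values were 553, 574, 603 and 557 at 12 days and 697, 677, 744 and 702 at 14 days. The days did not overlap in either level, and the 12-day proximal range overlapped the 14-day distal range. The level difference was -0.67 ± 0.08 (adjusted p = 2.64e-05, limma). Polr1a, the largest subunit of that polymerase, had distal values of 1262, 1346, 1321 and 1256, then 1155, 1145, 1040 and 1130, and proximal values of 905, 866, 928 and 990, then 1294, 1179, 1298 and 1318. Its level difference was -0.68 ± 0.08, and that of Nop2, a ribosomal RNA methyltransferase, was -0.70 ± 0.09. All 3 kept the opposite class in the 16 fits that left out 1 library. With equal table totals, 17 members kept a called negative level difference and 10 rose proximally. Without proximal 12-day replicate 1 the count with a called level difference was 16, and without distal 14-day replicate 3 or 4 the distal falls numbered 9.

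Proliferation genes shared the negative sign but not the proximal rise: the median change was -0.36 distally and -0.02 proximally. Of 24 members 7 fell distally (all genes: 8.12%), 1 rose proximally (7.35%), and 2 had a called negative level difference (5.08%). These were Mki67 (-0.67 ± 0.19), a nuclear protein of cycling cells, and Mcm3 (-0.82 ± 0.20), a subunit of the replicative helicase. The sign was negative for 23 of the 24, with a median of -0.35. Mki67 values were 6382, 5185, 7112 and 5871, then 4749, 5412, 4314 and 4182 distally, and 3973, 4091, 3204 and 4221, then 5122, 4898, 4161 and 4567 proximally, with overlap between days in both levels. The distal falls numbered 11 with equal table totals, 2 without distal 12-day replicate 3 or distal 14-day replicate 4, 3 without distal 14-day replicate 3 and 4 without distal 14-day replicate 1. The Mki67 call ended without distal 14-day replicate 4 or proximal 12-day replicate 3 (level difference -0.62 and -0.58). The distal-only class of Mki67 held in 9 of 16 fits that left out 1 library. With a replicate block or the tightest direction as a covariate, neither change of Mki67 was called. The Mcm3 class held in 6 of 16 such fits, though its level difference stayed called. Mcm3 moved in opposite directions with median-ratio factors, a pseudocount of 8, a minimum mean of 50, sample quality weights, the 16 libraries alone or a replicate block. With equal table totals Mcm3 fell only distally.

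**Figure D3:**
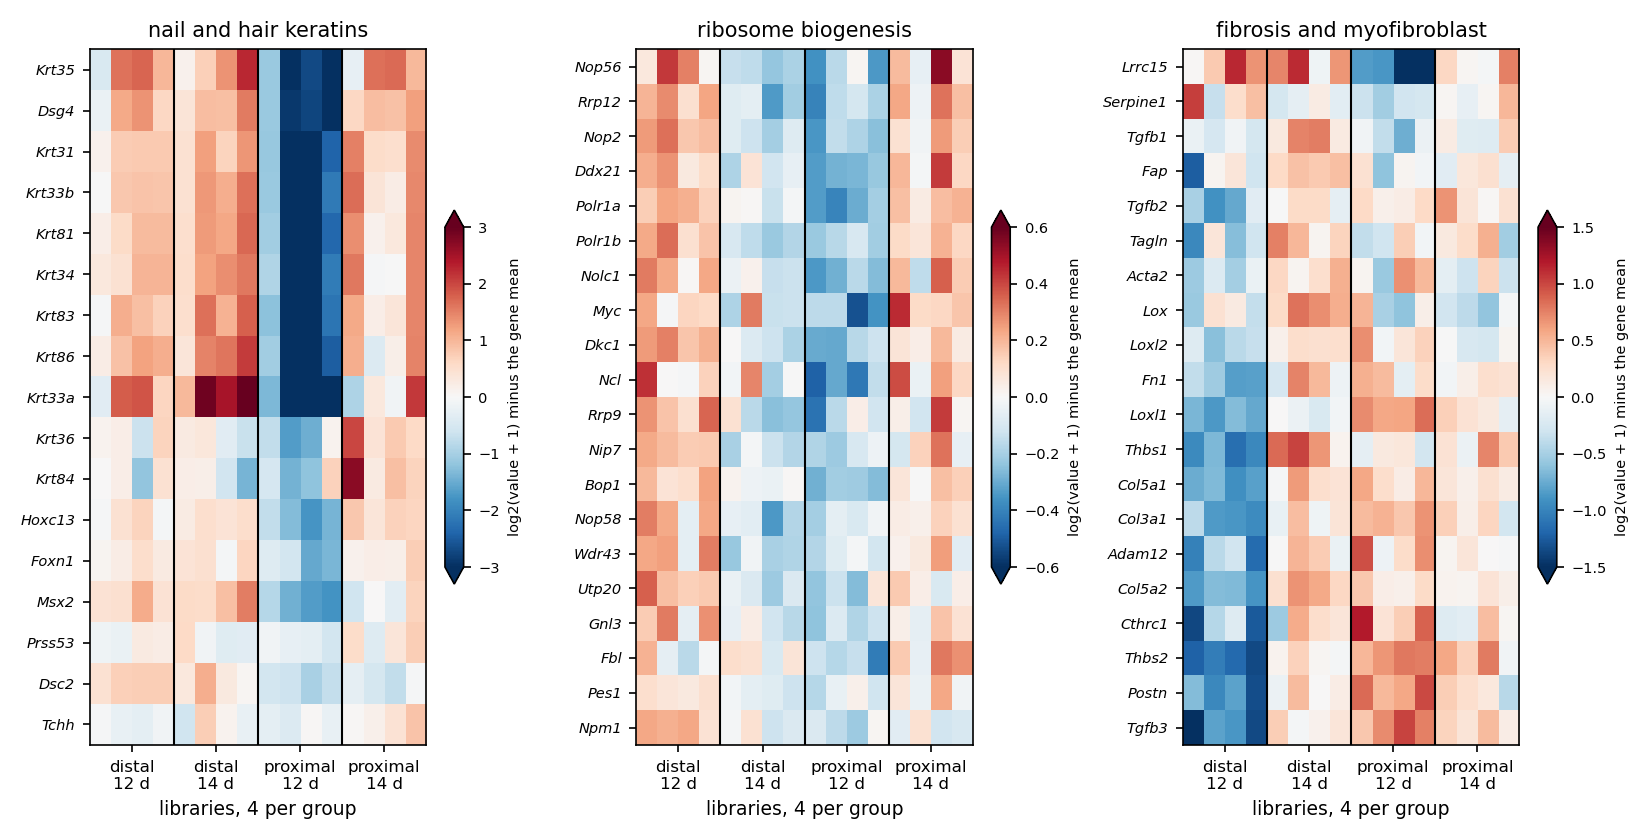
Heat maps of the 16 libraries (columns, 4 per group) for all measured members of 3 gene lists (rows), ordered by level difference; colour is log2(value + 1) minus the gene's mean over the 16 libraries, with a separate scale per panel. Hard keratins were low in the proximal 12-day libraries, least so in replicate 1; ribosome biogenesis genes were high in distal 12-day and proximal 14-day libraries; and most fibrosis genes were low in the distal 12-day libraries.

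Many listed matrix genes rose only distally. The fibrosis and myofibroblast list holds fibrillar collagens, their cross-linking enzymes, TGF-beta ligands and matricellular proteins. In it 18 of 20 members rose distally (all genes: 11.2%), and 1 rose and 2 fell proximally (4 fell with equal table totals). A called positive level difference was found in 13 (6.61%), 11 of them by rising only distally and Loxl1 and Tgfb3 by moving in opposite directions. The exception was Lrrc15, a membrane protein of activated fibroblasts and bone cells, which rose only proximally (1.70) with a level difference of -1.64 ± 0.48. The medians were 0.85 distally, -0.21 proximally and 1.10 for the level difference. Postn, periostin, an adhesive matrix protein of periosteum and healing skin, went from 18102, 14455, 16254 and 11269 to 26565, 39336, 28510 and 30496 distally, and from 50889, 39720, 42370 and 56214 to 36584, 33761, 31590 and 21235 proximally. Its days did not overlap within either level, yet the proximal change missed the threshold (-0.63 ± 0.23, adjusted p = 0.0691, limma), while the level difference was 1.70 ± 0.33. With equal table totals, with the 16 libraries alone or with the replicate number as a block, Postn counted as moving in opposite directions.

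Col5a2, a chain of the collagen V that starts collagen I fibrils, had distal values of 18541, 21235, 21083 and 18002 at 12 days and 39257, 52978, 49447 and 41252 at 14 days. Its proximal values were 44006, 35610, 35080 and 40512, then 34506, 34187, 38345 and 35425, with overlapping days. The distal rise was 1.21 ± 0.12 and the level difference 1.33 ± 0.18 (adjusted p = 7.59e-05, limma). Thbs2, a thrombospondin, had a level difference of 1.57 ± 0.22, Cthrc1, a collagen triple helix repeat protein of repairing tissue, 1.56 ± 0.37, Thbs1 1.24 ± 0.28 and fibronectin (Fn1) 1.02 ± 0.30. The summed list, a sum of normalised values, ran from 210564 to 242656 in distal 12-day libraries and from 349165 to 505615 at 14 days. Its proximal ranges were 378517 to 460367 and 331548 to 398879. Acta2 and Tagln, the contractile markers of myofibroblasts, rose distally by 0.62 and 0.83 and had no called level difference (0.90 and 0.64).

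The matrix-remodelling enzymes split. Mmp14 (1.09 ± 0.17), a membrane-bound collagenase, Mmp2 (0.92 ± 0.18), a gelatinase that Mmp14 activates, and Timp2 (0.84 ± 0.13), the inhibitor that takes part in that activation, rose only distally, with Mmp2 going from 7707, 7276, 7463 and 5815 to 11115, 14988, 12578 and 12762. Its proximal values of 13104, 12442, 13894 and 11042, then 11488, 11759, 15843 and 10083, overlapped. The stromal protease Mmp11 had a level difference of 1.81 ± 0.49 with neither change called. Of the 18 measured members of this list these 4 had a called level difference (all genes: 11.7%). Mmp3 and Adamts1 fell distally by 1.69 and 0.69 on the log2 scale with no called level difference (-1.41 and -0.68), and with distal 12-day replicate 1 left out no member fell, while 4 fell without proximal 12-day replicate 1.

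Limb patterning genes that are expressed again in the blastema made up a second group. Of the 29 measured members of the limb patterning and blastema list, 17 rose distally (all genes: 11.2%) and 1 fell (8.12%), and 4 rose (7.35%) and 5 fell (7.84%) proximally. The proximal falls numbered 3 without any 1 of proximal 12-day replicates 1, 2 and 4 and proximal 14-day replicates 1 and 4. Called level differences were positive in 10 members (6.61%) and negative in 1 (5.08%). Prrx1, a homeobox gene of limb mesenchyme (chr1:163245119-163313710, minus strand), had distal values of 1472, 1917, 1926 and 1770 at 12 days and 3344, 3460, 3190 and 3199 at 14 days. Its proximal values were 2697, 2078, 2523 and 2713, then 2318, 2139, 2557 and 2220. The distal days were well apart and the proximal days overlapped. The distal rise was 0.90 ± 0.10, the proximal change -0.11 ± 0.10 and the level difference 1.02 ± 0.14 (adjusted p = 9.86e-05, limma).

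Its paralogue Prrx2 had a level difference of 1.14 ± 0.16. The posterior and distal Hox genes Hoxa11, Hoxa13 and Hoxd13 had 1.30, 1.41 and 1.15, and Tbx4, the hindlimb T-box gene, 0.90, all as genes that rose only distally. En1, the ventral limb homeobox gene, fell only proximally (-0.70, level difference 1.13 ± 0.28). Dlx6 rose in both levels, more so proximally (0.59 and 1.41, level difference -0.82). Mest, an imprinted gene, rose 1.45 ± 0.24 distally with a level difference of 1.82 ± 0.34. Several blastema genes rose at both levels or missed the test of the difference: Fgf10 rose by 1.48 distally and 1.11 proximally, and Msx1, a homeobox gene needed for digit tip regrowth in fetal mice, rose 1.01 ± 0.23 distally with a level difference of 0.70 ± 0.33 (adjusted p = 0.187, limma). Msx1 values were 375, 677, 768 and 453, then 1062, 1017, 1193 and 1134 distally, and 599, 596, 873 and 652, then 692, 587, 1419 and 839 proximally. Without proximal 14-day replicate 3, which held the 1419, the Msx1 level difference was 0.95 and was called.

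The tendon and ligament list had 6 of 17 members with a called positive level difference (all genes: 6.61%), all rising only distally (4.64%): Ogn 2.22, Col12a1 1.43, Lum 1.24, Mkx 1.02, Fmod 0.92 and Scx 0.74. Scx and Mkx are transcription factors of tendon cells, and Ogn, Lum and Fmod are small proteoglycans that bind collagen. Ogn went from 188, 462, 320 and 224 to 1605, 1204, 769 and 865 distally, without overlap, and from 1005, 1172, 935 and 864 to 882, 1113, 738 and 568 proximally, with overlap. Tnmd, tenomodulin of mature tendon, had no called level difference (0.68 ± 0.52). In the cartilage list 15 of 16 members had a positive sign and a median of 1.14, but the libraries were variable. Only Col11a1 (1.45 ± 0.38) and Comp (1.46 ± 0.40) were called (all genes: 11.7%). Acan, the aggrecan of cartilage matrix, had 1207, 2085, 1344 and 912, then 1709, 4460, 4439 and 3251 distally, and 7898, 4605, 2721 and 3031, then 1981, 3415, 3854 and 2814 proximally. Its level difference of 1.80 ± 0.60 missed the threshold (adjusted p = 0.0559, limma). It was called without distal 12-day replicate 2 (2.01), distal 14-day replicate 1 (2.10) or proximal 12-day replicate 3 (2.0), and also with sample quality weights or the 16 libraries alone.

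**Figure D4:**
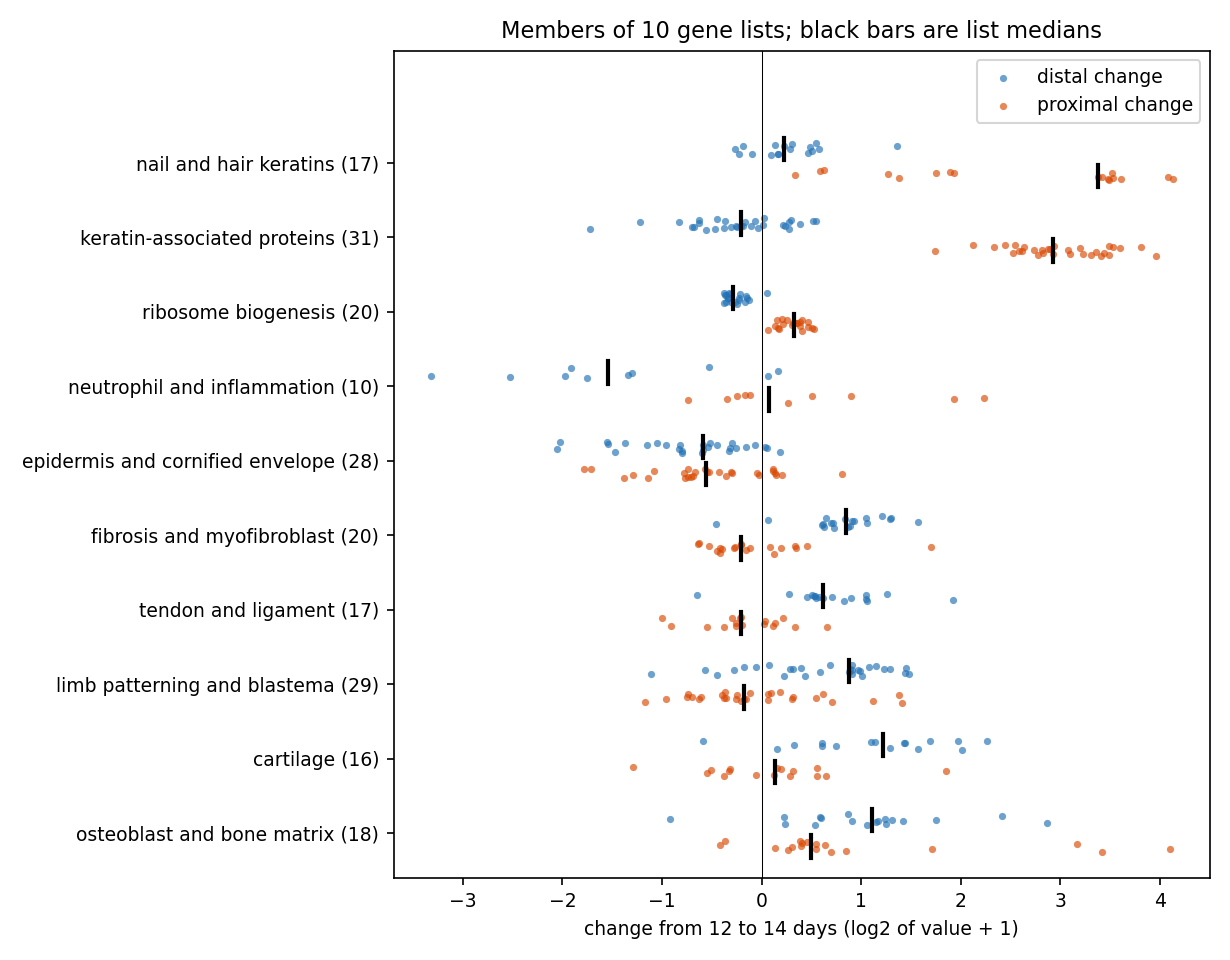
Change from 12 to 14 days in log2 of value + 1 for every measured member (points, number in brackets) of 10 gene lists, distal in blue and proximal in orange; black bars are medians. Distal and proximal points separate most for hard keratins and keratin-associated proteins, narrowly but evenly for ribosome biogenesis, and overlap for epidermis and osteoblast genes.

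A level difference was called for 3 of 11 hedgehog, 8 of 28 Wnt and 5 of 27 BMP pathway genes (all genes: 11.7%). In the hedgehog list 3 of 11 members rose only distally: Gli2, a transcription factor of the pathway (0.93 ± 0.16), Ptch1, the receptor and a target (0.69 ± 0.19), and Smo, the signal transducer (0.28 ± 0.08). Gli2 went from 106, 91, 103 and 104 to 177, 238, 233 and 202 distally, and from 170, 164, 173 and 191 to 183, 183, 207 and 189 proximally, with overlap only in the proximal libraries. Ptch1 lost its call without distal 14-day replicate 3 (0.64) or proximal 12-day replicate 1 (0.60), and Smo lost its call in 6 of 16 fits that left out 1 library. Smo also lost its call with median-ratio factors, equal table totals or the 16 libraries alone. In the Wnt list 6 of 28 members had a called positive level difference, among them the ligands Wnt16 (1.65 ± 0.35) and Wnt5a (0.67 ± 0.18), the stem cell receptor Lgr5 (1.13 ± 0.35), the feedback inhibitor Nkd1 (0.95 ± 0.24) and the Dickkopf family member Dkk3 (0.88 ± 0.19). Wnt16 went from 67, 95, 119 and 52 to 267, 230, 167 and 188 distally, without overlap, and stayed between 91 and 153 proximally.

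The called negative level differences of the Wnt list were those of Tcf7 and Sfrp4. Tcf7, a nuclear effector of Wnt signalling, rose only proximally, from 378, 323, 268 and 282 to 573, 662, 590 and 943, against distal values of 811, 867, 1523 and 1032, then 960, 1057, 1099 and 1107 (level difference -1.09 ± 0.23). The secreted inhibitor Sfrp4 fell only distally, from 270, 281, 447 and 362 to 89, 122, 208 and 177, against proximal values of 184, 49, 101 and 76, then 148, 182, 232 and 172 (-2.21 ± 0.53). Without proximal 12-day replicate 1, which held the 184, it moved in opposite directions. Lef1, another effector, rose proximally by 1.79 ± 0.44 with a level difference of -1.50 ± 0.62 (adjusted p = 0.124, limma). Without proximal 14-day replicate 1 it was -1.88 and called. In the BMP list Bmp4 (0.78 ± 0.18), a ligand, and Chrd (1.05 ± 0.25), its extracellular antagonist, rose only distally. The antagonists Fst (-1.11 ± 0.19) and Bambi (-0.91 ± 0.25) rose only proximally, and Chrdl1 (1.78 ± 0.55) had neither change called. Fst went from 697, 706, 697 and 652 to 1537, 1272, 1464 and 1361 proximally, without overlap, and its distal values lay between 1082 and 1657 on both days.

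By the rule for named genes, Nell2, Aspn, Prss35 and Epha3 had the largest level differences among genes that rose only distally. Aspn, asporin, a small proteoglycan of periosteum and tendon (chr13:49544443-49567565, plus strand), went from 1374, 2204, 2076 and 1180 to 6981, 7544, 4203 and 5687 distally, and from 8167, 7841, 7181 and 9959 to 6594, 6111, 5504 and 4534 proximally. The days overlapped in neither level. The distal rise was 1.85 ± 0.19 (3.61-fold) and the level difference 2.40 ± 0.27 (adjusted p = 1.84e-05, limma). Its proximal change of -0.55 ± 0.19 was just short of the threshold (adjusted p = 0.0519), and with equal table totals Aspn moved in opposite directions. Nell2, a secreted neuronal glycoprotein, went from 3, 18, 15 and 5 to 223, 71, 53 and 70 distally, and stayed between 17 and 101 proximally. Its level difference of 3.01 ± 0.85 ranged from 2.57 to 3.43 when 1 library was left out and lost its call without distal 12-day replicate 1 or 4 or distal 14-day replicate 1, which held the 223. Epha3, an ephrin receptor, had 2.24 ± 0.48. Prss35, a secreted serine protease-like protein, had 2.38 ± 0.70, which lost its call without any of 7 libraries, proximal 12-day replicate 1 among them (2.20).

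Il1b, Cxcl1 and Cxcr2 fell only distally. In the neutrophil and inflammation list 6 of 10 measured members fell distally (all genes: 8.12%), 0 changed proximally, and 3 had a called negative level difference (5.08%), with medians of -1.55, 0.08 and -1.73. Among the 7 members with a mean of at least 50, the distal falls numbered 3 when only such genes were fitted. Il1b, the cytokine interleukin-1 beta (chr2:129364570-129371139, minus strand), had distal values of 212, 532, 468 and 293 at 12 days and 53, 86, 23 and 13 at 14 days. Its proximal values were 13, 13, 9 and 6, then 34, 11, 14 and 25. The distal days were apart and the proximal days overlapped. The distal fall was -3.32 ± 0.59 (9.98-fold) and the level difference -4.21 ± 0.83 (adjusted p = 0.00249, limma).

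Nlrp3, the inflammasome sensor whose activation releases mature Il1b, went from 149, 90, 232 and 134 to 26, 47, 14 and 19 distally, and lay between 10 and 29 in all 8 proximal libraries (level difference -2.91 ± 0.52). Cxcl1, a neutrophil chemokine (-2.80 ± 0.68), and Selp, the P-selectin that captures leukocytes on vessel walls (-2.47 ± 0.54), also fell only distally. The proximal change of Selp was 1.00 ± 0.38, short of the threshold, and it counted as opposite with the 16 libraries alone. Cxcr2, the neutrophil receptor of Cxcl1, had -1.17 ± 0.36 and a proximal change of -0.74 (adjusted p = 0.0527, limma). It fell in both levels with equal table totals, and lost its call in 9 of 16 fits that left out 1 library, proximal 12-day replicate 1 among them (-1.19). The calprotectin genes S100a8 and S100a9 did not follow: their distal changes were 0.07 and 0.16. Summed over the list, distal 14-day libraries ranged from 675 to 14422. Cd14, the endotoxin co-receptor of monocytes, went from 309, 315, 356 and 321 to 131, 149, 107 and 111 distally, and stayed between 129 and 209 proximally (-1.58 ± 0.22). It was the called member of a macrophage list (all genes: 11.7%) in which the other 18 of 19 signs were positive, with a median of 0.43. The macrophage sum in proximal 12-day libraries reached 19517 in replicate 1, and its part in these results was not tested. Without that library the level difference of Il1b, Nlrp3, Cxcl1 and Cd14 stayed called.

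Hard keratins and their associated proteins rose only proximally, and Krtap28-10, one of the latter, had the level difference farthest from 0 of all called genes (-5.41). Its proximal change was 3.765 and its distal change, which was not called, was -1.64. Krtap28-10 is not among the genes named by the rule. Of 17 measured nail and hair keratin genes, 14 rose proximally (all genes: 7.35%), 0 changed distally by the test, and 11 had a called negative level difference (5.08%). The medians were 3.38 proximally, 0.22 distally and -2.71 for the level difference. Of 31 listed keratin-associated proteins, 30 rose proximally, 0 changed distally and 27 had a called negative level difference. Their medians were 2.92, -0.21 and -3.19, in that order. In each case the distal libraries already held these transcripts at 12 days. The summed hard keratin list ran from 260115 to 416667 in distal 12-day libraries, from 320382 to 575884 in distal 14-day libraries, from 42467 to 143097 in proximal 12-day libraries and from 293638 to 858100 in proximal 14-day libraries.

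Krt31, an acidic hard keratin (chr11:100046646-100050551, minus strand), had distal values of 22674, 35404, 35765 and 35592 at 12 days and 28688, 48984, 32828 and 52067 at 14 days. Its proximal values were 9406, 2289, 1966 and 3911 at 12 days and 59280, 30250, 29341 and 55416 at 14 days. The proximal 12-day libraries lay below all others, and the remaining 3 groups overlapped. The proximal rise was 3.53 ± 0.41 (11.5-fold), the distal change 0.31 ± 0.41 and the level difference -3.22 ± 0.58 (adjusted p = 0.0013, limma). Krt35, a hard keratin of the nail and hair matrix, went from 945, 203, 310 and 52 to 1720, 6439, 6676 and 4001 proximally (17.5-fold) and lay between 1483 and 9766 distally, with a level difference of -3.99 ± 1.00.

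Regulators of the nail matrix and a junction gene also rose only proximally. Hoxc13, a homeobox activator of hard keratin genes, went from 731, 496, 359 and 469 to 2138, 1574, 1986 and 1932 proximally, against 1171 to 1964 in all 8 distal libraries (level difference -1.76 ± 0.32, adjusted p = 0.0013, limma). Foxn1, a forkhead factor of nail and hair matrix, had -1.18 ± 0.37, and Dsg4, the desmosomal cadherin of the hair shaft, -3.29 ± 0.59. Krt33a, Krt84 and Msx2 rose proximally by 4.07, 1.75 and 1.38 with no called level difference. Proximal 12-day replicate 1 held the group's highest Krt31, Krt35, Dsg4 and Hoxc13 value; without it 13 hard keratin genes and 29 keratin-associated proteins had a called level difference.

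Because these genes moved together, the stretch just before their starts is shown for Krt31 and for the 5 keratin-associated proteins named by the rule. Each line gives the 60 bases upstream of the RefSeq start (GRCm38.p6, on the gene's strand, 5′ to 3′), with TATAAA, the core letters of a TATA box, in capitals. Krt42 and Krt90, named keratins that also rose only proximally, held no TATAAA in their 60 bases and are not printed. Krt35 and Krt6a, the other named keratins of that class, had no promoter entry and were not searched. The TATAAA begins 29, 27, 31, 31, 32 and 49 bases before the start, in the order printed, so that it lies farther upstream in Krtap6-2 than in the other 5. The coordinates are chr11:100050552-100050611 (minus strand), chr16:88647797-88647856 (minus), chr11:99993995-99994054 (minus), chr16:89083964-89084023 (plus), chr16:89047900-89047959 (minus) and chr16:89420112-89420171 (minus).
Krt31: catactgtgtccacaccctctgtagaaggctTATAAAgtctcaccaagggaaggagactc
Krtap26-1: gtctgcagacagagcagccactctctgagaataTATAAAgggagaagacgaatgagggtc
Krtap17-1: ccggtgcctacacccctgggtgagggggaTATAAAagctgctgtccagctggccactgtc
Krtap6-3: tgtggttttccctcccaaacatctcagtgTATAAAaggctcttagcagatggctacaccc
Krtap6-5: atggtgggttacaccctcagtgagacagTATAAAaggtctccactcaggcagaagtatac
Krtap6-2: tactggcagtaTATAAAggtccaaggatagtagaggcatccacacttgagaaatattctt
TATAAA on the gene's strand within 50 bases before the start was found in 25 of 34 genes named Krtap with a promoter entry (73.5%). It was found in 24 of 279 other genes that rose only proximally (8.60%) and in 270 of all 10756 measured genes with an entry (2.51%). On either strand (TATAAA or TTTATA) in the 250 bases before the start the shares were 91.2%, 20.8% and 8.66%. A match of letters is a description and not a site.

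All 5 keratin-associated genes printed above rose only proximally. Krtap26-1 went from 75, 6, 9 and 27 to 631, 135, 83 and 258 proximally and from 252, 144, 358 and 447 to 91, 77, 136 and 50 distally, where the distal change of -1.72 ± 0.65 missed the threshold (adjusted p = 0.069, limma). Its level difference was -5.12 ± 0.92, and it counted as opposite without proximal 12-day replicate 1. Krtap17-1 went from 252, 111, 43 and 26 to 314, 821, 1590 and 3166 proximally, against distal values of 1434, 843, 1886 and 1553, then 500, 1376, 638 and 806 (-4.64 ± 1.01). Krtap6-3 went from 1466, 525, 453 and 143 to 2262, 3826, 9080 and 8065 proximally, and lay between 1112 and 5736 distally (-3.97 ± 1.06). The related Krtap6-5 (-3.68 ± 0.77) and Krtap6-2 (-3.56 ± 0.75) went proximally from 947-3404 to 9231-27845 and from 1239-6214 to 13968-41211, without overlap. Over every measured gene named Krtap, a set put together after the values were seen, 33 of 38 had a called negative level difference. These sat in clusters on chromosome 11 (16 of 18 called) and chromosome 16 (16 of 19), with the remaining gene, also called, on chromosome 1. Members of the family are near copies, so reads could be split between them and single-gene values are uncertain.

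General epidermal genes had no called level difference. Of 28 epidermis and cornified envelope genes, 16 fell distally (all genes: 8.12%) and 6 proximally (7.84%; 12 with equal table totals), with medians of -0.59 and -0.56, and 0 had a called level difference (11.7%). Leaving out distal 12-day replicate 2, 3 or 4 left 10 distal falls, leaving out distal 14-day replicate 3 left 9, and leaving out proximal 14-day replicate 4 left 3 proximal falls. The epidermal sum went from 791143-898640 to 329379-616572 distally and from 1025263-1326288 to 491356-903081 proximally, so that the hard keratins rose proximally while the epidermal sum was lower; its part in the keratin result was not tested. Among 20 genes of wound-activated keratinocytes, 3 had a called level difference (all genes: 11.7%). These were Krt6a (-1.39 ± 0.37), Krt90 (-2.16 ± 0.48) and Krt42 (-2.29 ± 0.56), keratins that are also abundant in nail epithelium. Krt42 went from 12254, 3667, 4516 and 3385 to 31056, 31269, 31497 and 50139 proximally and lay between 62498 and 152047 distally, where no proximal library reached the lowest distal one.

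Other genes rose only proximally outside these groups. Fosl1 (-1.89 ± 0.35) and Fosb (-1.92 ± 0.48), members of the AP-1 transcription factor family, were the called genes among 20 immediate early and stress genes (all genes: 11.7%). With the 16 libraries alone 4 of these 20 were called. Fosl1 went from 35, 48, 40 and 45 to 113, 64, 95 and 142 proximally and from 113, 112, 89 and 109 to 74, 71, 54 and 69 distally, so that its distal days did not overlap either, although the distal change of -0.65 ± 0.25 missed the threshold. Pck1, the gluconeogenic enzyme PEPCK, went from 97, 24, 22 and 20 to 1032, 324, 234 and 200 proximally and lay between 27 and 74 distally (-3.07 ± 0.79). It was the called gene of 8 adipocyte genes (all genes: 11.7%). Tnfrsf13c, the B cell BAFF receptor, went from 50, 15, 14 and 13 to 102, 149, 172 and 145 proximally and lay between 11 and 52 distally (-3.36 ± 0.66). It was the called gene of 4 lymphocyte genes (all genes: 11.7%). Acta1, skeletal muscle actin, went from 5, 6, 6 and 22 to 35, 42, 51 and 113 proximally (-3.97 ± 0.84), the called gene of 4 muscle genes. Its distal values were 151, 22, 19 and 30 at 12 days and 19, 16, 8 and 15 at 14 days. The distal change of -1.37 ± 0.59, part of that level difference, missed the threshold (adjusted p = 0.113, limma). Acta1 left the proximal-only class when an unadjusted p of at least 0.05 was required distally. The summed adipocyte list overlapped across all 4 groups (9160 to 13873), as did the muscle list (151 to 516). Stc1, a secreted regulator that inhibits the IGF-binding protein protease Pappa, rose in both levels, by 0.49 ± 0.16 distally and 1.54 ± 0.16 proximally. It kept that class in 10 of 16 fits that left out 1 library and counted as proximal-only with equal table totals or a replicate block.

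Genes that fell only proximally, 136 in all, made up the smallest of the single-level classes. Ddah1, which degrades an inhibitor of nitric oxide synthase, went from 195, 343, 338 and 333 to 212, 133, 132 and 138 proximally, with overlap, and from 78, 97, 90 and 76 to 216, 175, 84 and 128 distally (level difference 1.70 ± 0.43). It kept the class in 9 of 16 fits that left out 1 library. Slc43a1, a neutral amino acid transporter, went from 262, 122, 133 and 160 to 75, 77, 64 and 88 proximally and lay between 67 and 123 distally, and kept the class in all 16 (1.33 ± 0.32). Pla2g5, a secreted phospholipase, had 1.45 ± 0.39. Rian, an imprinted non-coding RNA that hosts small RNAs, had 1.18 ± 0.34 and kept the class in 4 of 16.

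Smpd3 was the 1 gene of the osteoblast and bone matrix list with a called level difference (all genes: 11.7%). In that list 8 of 18 members rose distally (all genes: 11.2%) and 4 proximally (7.35%), with medians of 1.10 and 0.50. Bglap, osteocalcin of mature osteoblasts, went from 20, 452, 270 and 108 to 1740, 1432, 530 and 598 distally and from 44, 24, 17 and 139 to 694, 1384, 567 and 450 proximally. The days were apart in both levels, and the level difference was -1.24 ± 1.20 (adjusted p = 0.563, limma), too imprecise to show or deny a difference of this size. Without distal 12-day replicate 1, which held the lowest distal Bglap value, 4 osteoblast genes rose distally, and without distal 14-day replicate 2, 5 did. Dmp1, a matrix protein of osteocytes, had -1.26 ± 1.00 and Acp5, the acid phosphatase of osteoclasts, -0.23 ± 0.68. Smpd3, a sphingomyelinase needed for bone mineralisation, had 1.01 ± 0.31 with neither change called. It lost its call in 9 of 16 fits that left out 1 library, with 0.81 without proximal 12-day replicate 1.

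The remaining lists gave few or no called level differences, to be read beside the 11.7% of all genes that were called. None was called in the osteocyte (6), osteoclast (13), endothelium (18), erythroid (6), melanocyte (3), sweat and sebaceous gland (8), hypoxia and glycolysis (20), mitochondrial transcript (9) or interferon and antigen presentation (16) lists, numbers in brackets being measured members. All 16 interferon-list signs were positive, with a median of 0.56. Pericyte and smooth muscle had 1 of 14 (Pdgfrb, a receptor of mural cells and fibroblasts, 1.05 ± 0.15) and the IGF axis 2 of 15 (Stc1 and Igf2r, 0.48 ± 0.14). Schwann cell and nerve had 3 of 16: Scn7a (1.36 ± 0.43), Gfra3 (1.26 ± 0.41) and Mal (-1.95 ± 0.60), a membrane protein that epithelia also express. Igf2r, Scn7a, Gfra3 and Mal each lost the call in 9 to 12 of 16 fits that left out 1 library. In the fibroblast state list 5 of 15 were called, C1qtnf3, Mfap5, Pamr1 (1.76 ± 0.41), Pdgfra (0.60 ± 0.19) and Sfrp4.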

How the data were processed

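RNA from hind limb digit tips was depleted of ribosomal RNA and sequenced, per the labels' protocols. The submitters' processing notes name cutadapt, STAR 2.5.4b, featureCounts 1.6.3 (Subread) and the build mm10. The deposited values are whole numbers but were used as a normalised score, not as read counts. Across 9650 well-expressed genes they varied 6.71 times less along their tightest direction than Poisson counting would allow (0.00675 against 0.0453, natural log). A factor per library was thus probably removed, although neither the labels nor the file header mention it. Depth is unknown, no counting interval was computed, and p-values may be too small. No 2 libraries held identical values.

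The model was a limma fit (version 3.58.1, R 4.3.3; lmFit, eBayes with trend) of log2(value + 1) to all 24 libraries with 6 group means, so that the 21-day groups help to estimate the spread (18 residual and 3.91 prior degrees of freedom). Benjamini-Hochberg adjustment ran over 15055 genes. No gene was filtered in the fit, and folds on this scale understate changes of low genes. The fit was tested on simulated data with known level differences.

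The members, the 35 gene lists, the rule for named genes and the alternatives were chosen with earlier results of these data known; 4 further lists were put together after values were seen. The rule names, among called genes with a mean of at least 50, the 4 with the largest level difference in each single-level class and the 5 in each opposite class, without predicted genes. It adds the 3 called members with the smallest adjusted p of each list (all called members where there were fewer) and a panel of 9 genes. Further list members are given as examples from list counts. Lists are described by counts and medians, without a test.

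Whether replicate numbers pair the libraries is unknown. Of 24 same-number pairs, 8 had deviations correlated above 0.1 (range -0.454 to 0.717). The mean was 0.03, against -0.01 for pairs with different numbers, and replicate 3 of the 12-day and 14-day proximal groups gave the 0.717. These correlations cannot settle the pairing, and the main fit used none. The alternatives were median-ratio factors, table totals, pseudocounts of 0.5 and 8, a minimum mean of 50, sample quality weights, the 16 libraries alone, a replicate block, the tightest direction as a covariate, 2 stricter class rules, and leaving out each library. Gene coordinates are from GENCODE vM21 (GRCm38) and promoter sequences from RefSeq (GRCm38.p6), matched by symbol. Some genes are not reported here.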

Additional observations from a re-analysis of the deposited data

Results flagged for a closer look

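The test of the difference itself, an interaction contrast in limma adjusted over all 15055 genes, was past 0.05 for 78 of the 85 genes named by the rule and reported here; most were named because they were called, so the count is no result. The values are level differences on the log2 scale, distal change minus proximal change, with 4 libraries per group, and their direction in each class follows from the class. Among genes that rose distally and fell proximally it was 3.52 in C1qtnf3, 2.43 in Lrrc17, 1.74 in Tgfb3, 1.6 in Mfap5, 1.53 in Lhx9 and 1.18 in Loxl1. Where the distal level fell and the proximal level rose it was -3.44 in Hdc, -2.15 in Gldc, -1.61 in Srgn, -1.35 in Serpinb13, -1.31 in Nqo1, -0.70 in Nop2, -0.68 in Polr1a and -0.67 in Polr1b. For genes that rose only distally it was 3.01 in Nell2, 2.40 in Aspn, 2.38 in Prss35, 2.24 in Epha3, 2.22 in Ogn, 1.82 in Mest, 1.76 in Pamr1, 1.70 in Postn and 1.65 in Wnt16. In the same class it was 1.46 in Comp, 1.45 in Col11a1, 1.43 in Col12a1, 1.36 in Scn7a, 1.33 in Col5a2, 1.14 in Prrx2, 1.09 in Mmp14, 1.05 in Pdgfrb and 1.05 in Chrd. It was also 1.02 in Prrx1, 0.93 in Gli2, 0.92 in Mmp2, 0.88 in Dkk3, 0.84 in Timp2, 0.78 in Bmp4, 0.74 in Scx, 0.69 in Ptch1 and 0.28 in Smo. For genes that fell only distally it was -4.21 in Il1b, -2.91 in Nlrp3, -2.80 in Cxcl1, -2.47 in Selp, -2.21 in Sfrp4, -1.58 in Cd14, -1.17 in Cxcr2 and -0.67 in Mki67. For genes that rose only proximally it was -5.12 in Krtap26-1, -4.64 in Krtap17-1, -3.99 in Krt35, -3.97 in Acta1, -3.97 in Krtap6-3, -3.68 in Krtap6-5, -3.56 in Krtap6-2, -3.36 in Tnfrsf13c and -3.29 in Dsg4. In the same class it was -3.22 in Krt31, -3.07 in Pck1, -2.29 in Krt42, -2.16 in Krt90, -1.95 in Mal, -1.92 in Fosb, -1.89 in Fosl1, -1.76 in Hoxc13 and -1.39 in Krt6a. It was also -1.11 in Fst, -1.09 in Tcf7 and -0.82 in Mcm3. For genes that fell only proximally it was 1.70 in Ddah1, 1.45 in Pla2g5, 1.33 in Slc43a1 and 1.18 in Rian. With neither change called it was 1.26 in Gfra3, 1.01 in Smpd3 and 0.48 in Igf2r. Stc1, which rose in both levels, had -1.05.

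In 28 of 340 groups of 4 libraries checked (85 genes in 4 groups), 1 library stood apart from the other 3 by Dixon's criterion, which chance meets in about 1 in 20 groups. In distal 12-day replicate 1 these were Acta1 at 151, Gfra3 at 7, Krt31 at 22674 and Smo at 1762. In distal 12-day replicate 2 it was Krtap6-3 at 1112. In distal 12-day replicate 3 it was Fosl1 at 89. In distal 14-day replicate 1 it was Nell2 at 223. In proximal 12-day replicate 1 these were Col11a1 at 9797, Ddah1 at 195, Igf2r at 4846, Krt42 at 12254, Krtap6-5 at 3404, Pck1 at 97 and Tnfrsf13c at 50. In proximal 12-day replicate 2 it was Scx at 438. In proximal 12-day replicate 4 these were Acta1 at 22 and Fst at 652. In proximal 14-day replicate 1 these were Ddah1 at 212, Pck1 at 1032, Serpinb13 at 1114 and Stc1 at 421. In proximal 14-day replicate 3 these were Col11a1 at 9190, Igf2r at 4439, Pdgfrb at 2790 and Rian at 136. In proximal 14-day replicate 4 these were Krt42 at 50139, Krt90 at 49260 and Smpd3 at 2960.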

How the results depend on the processing

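Under every rescaling, pseudocount, filter, weighting, covariate or subset tried, the counts for the level difference, the distal change, the proximal change and the distal-only, proximal-only, opposite and neither classes stayed within 1.5 times their stated values, apart from the stricter class rule below. The level difference was called for 1320 genes with table totals, 1498 with the covariate, 1570 with 16 libraries, 1728 with median-ratio factors, 1745 with the minimum mean, 1758 and 1770 with the other pseudocounts and 1911 with quality weights. With the replicate number as a block it was called for 1654 genes, and 827, 529 and 136 genes were then distal-only, proximal-only and opposite. Whether the numbers pair the libraries is unknown. Requiring a level difference over 1 on the log2 scale left 241 distal-only, 181 proximal-only, 42 opposite, 22 neither and 3 same-direction genes. Same-direction genes numbered 5 with table totals and 5 to 13 when 1 library was left out.

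Leaving out each library gave 1389 to 1776 level differences, 2213 to 3049 distal and 1649 to 2285 proximal changes, 659 to 939 distal-only, 409 to 544 proximal-only, 92 to 131 opposite and 118 to 198 neither genes. The level difference of Acp5 (-0.23), not called, ranged from -0.810 to 0.211 when 1 library was left out, reversing to 0.11 without distal 14-day replicate 1 and to 0.21 without proximal 12-day replicate 2; the cause was not tested. The unknown depth and 4 libraries per group limit the precision.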

Other observations

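A few gene groups outside the lists above were put together after values were seen and are given as descriptions only. Of 39 measured collagen chain genes, 25 rose distally (all genes: 11.2%) and 3 proximally (7.35%). A called positive level difference was found in 13 (6.61%), all by rising only distally. The median level difference of the 39 was 0.80. Col8a1 (1.77 ± 0.27) and Col8a2 (1.76 ± 0.40), the chains of the network collagen VIII of vessels and basement membranes, stood beside the fibrillar Col3a1 (1.28) and Col5a1 (1.26) and the microfibrillar Col6a1 (1.12).

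Imprinted genes are expressed from 1 parental copy, and many act on growth. Of 17 such genes, 8 had a called positive level difference and 1 a called negative one, against 6.61% and 5.08% of all genes. The median was 0.73 distally and -0.20 proximally. Cdkn1c, an inhibitor of the cell cycle, had 1.65 ± 0.34, Grb10, an adaptor that dampens insulin and IGF signalling, 1.25 ± 0.18, Ndn, necdin, 1.22 ± 0.26, Peg3 0.99 and Sgce 0.78. The amino acid transporter Slc38a4 had -1.01. The positive count was 4 without distal 12-day replicate 1 or 4 or proximal 14-day replicate 1 or 4, and 5 without proximal 12-day replicate 1 or 3.

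Among 74 genes of cytosolic ribosomal proteins 73 had a negative level difference, with a median of -0.28, but 3 were called (all genes: 11.7%), Rpsa and Rpl6 among them. With median-ratio factors 6 were called and with table totals 0, while leaving out 1 library gave 2 to 8, with 5 without distal 12-day replicate 1, 8 without distal 14-day replicate 2 and 7 without distal 14-day replicate 3 or proximal 14-day replicate 4. The letters CACGTG, the E-box bound by Myc, were sought in the 250 bases before the start. They were present in 1 of 15 ribosome biogenesis genes with an entry (6.67%), against 1046 of 10756 measured genes (9.72%).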
